A study of Rattus norvegicus with 12 samples.

Results

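The matrix metalloproteinase (MMP) genes Mmp2, Mmp3, Mmp9, Mmp11, Mmp14 and Mmp19 and the genes of the MMP inhibitors Timp1, Timp2, Timp3 and Reck were followed in rat aortic smooth muscle cells treated with angiotensin II (Ang II), the pressor peptide of the renin-angiotensin system. These 10 genes, 6 of proteases and 4 of inhibitors, were picked by symbol from 14506 genes measured on Affymetrix Rat Gene 1.0 ST arrays, and each was represented by 1 probe set. RNA came from vascular smooth muscle cells of Sprague-Dawley aorta that had been deprived of serum for 48 h. The groups, of 3 arrays each, were untreated control cells and cells given 100 nM Ang II for 6 h, 12 h or 24 h. The treatment protocol gives the times as 1, 3 or 24 h, against 6, 12 and 24 h in the titles and the design text, and the times of the titles are used here. Arrays of a group are labelled as biological replicates with no word on separate animals or cultures, so the p-values below measure the spread between these arrays, which may be technical. Control cells held in culture for 6, 12 or 24 h more were not analysed here, so that Ang II and time in culture cannot be told apart.

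MMPs are zinc-dependent endopeptidases that are made as inactive proenzymes and cut collagens, elastin, proteoglycans and basement membrane. Tissue inhibitors of metalloproteinases (TIMPs) are secreted proteins that block the active site, and Reck is an inhibitor anchored in the cell membrane. In the artery wall, the balance of these proteins is known for its part in matrix turnover and in the migration of smooth muscle cells.

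All changes of the 10 genes were small. The largest against control was the rise of Timp1, 1.43-fold at 12 h, and no gene reached 1.5-fold at any time. Timp1, Mmp14 and Mmp19 were higher and Mmp2 and Reck lower than in control cells at each of the 3 times (adjusted p under 0.05). Timp3 fell at 6 and 12 h and not at 24 h, while Mmp11 fell at 6 h and rose at 24 h. Mmp3, Mmp9 and Timp2 passed the test against control at none of the times.

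The labelled cell type was checked first. Of 9 measured smooth muscle marker genes, 0 had a mean signal below that of the median gene, and Acta2, the smooth muscle actin gene, had mean log2 signals of 14.39 in control cells and of 14.36, 14.36 and 14.46 after 6, 12 and 24 h. By the mean over the 12 arrays, all 11 leukocyte and macrophage markers and 8 of 9 endothelial markers lay below the median gene, but only 3 of 9 fibroblast markers did. The macrophage marker Cd14 was above the median gene (8.00) in control cells (8.22). It was also above it at 6 h (8.34) and 12 h (8.24), and below it at 24 h (7.21). Of the fibroblast markers, Col14a1 had a mean log2 signal of 11.88 in control cells, and the part of fibroblasts in the cultures was not tested. The mean log2 signal over the leukocyte markers was 5.81 to 5.89 on control arrays and 5.85 to 5.89, 5.81 to 5.87 and 5.83 to 5.83 on the arrays of 6, 12 and 24 h. Arrays correlated at 0.9975 to 0.9984 within groups and at 0.9868 to 0.9941 between groups (Pearson, across genes, which are not independent replicates). The interquartile range of the log2 signals was 3.397 to 3.552 on the 6 h arrays, 3.366 to 3.53 at 12 h and 3.263 to 3.388 at 24 h, against 3.454 to 3.46 on control arrays, with Ang II 24 h replicate 2 the narrowest of the 12.

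Promoter sequence is shown for the 3 genes with the clearest change over the 4 groups (Timp1, Timp3 and Mmp11) and for Mmp3, which passed no test and whose window holds other motifs. In the RefSeq promoter table of rat assembly GRCr8, 6 of the 10 genes were found, and Mmp2, Mmp9, Mmp14 and Mmp19 were not matched. Each sequence is the 250 bases before the annotated start of the gene, read 5′ to 3′ on the gene's strand. Capitals mark exact matches on either strand to TGANTCA (the AP-1 site, bound by Fos and Jun proteins), TATAAA (the TATA box) or GGGCGG (the GC box, bound by Sp1 and related factors). The windows are chrX:3771123-3771372 on the minus strand for Timp1, chr7:19459559-19459808 on the minus strand for Timp3, chr20:12730034-12730283 on the plus strand for Mmp11 and chr8:12925031-12925280 on the plus strand for Mmp3.
Timp1: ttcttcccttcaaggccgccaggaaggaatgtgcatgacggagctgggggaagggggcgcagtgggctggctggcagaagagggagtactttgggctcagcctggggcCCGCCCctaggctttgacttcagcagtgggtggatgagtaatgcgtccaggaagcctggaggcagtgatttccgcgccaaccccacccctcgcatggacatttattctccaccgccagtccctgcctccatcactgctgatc
Timp3: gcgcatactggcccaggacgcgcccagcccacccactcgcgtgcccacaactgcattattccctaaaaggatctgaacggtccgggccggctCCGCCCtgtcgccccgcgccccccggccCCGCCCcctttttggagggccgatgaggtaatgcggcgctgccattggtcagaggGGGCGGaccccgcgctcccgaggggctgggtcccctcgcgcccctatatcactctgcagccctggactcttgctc
Mmp11: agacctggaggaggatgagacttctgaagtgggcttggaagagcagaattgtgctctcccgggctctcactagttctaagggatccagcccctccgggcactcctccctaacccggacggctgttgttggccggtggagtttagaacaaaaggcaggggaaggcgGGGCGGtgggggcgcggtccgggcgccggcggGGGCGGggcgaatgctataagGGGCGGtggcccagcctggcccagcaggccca
Mmp3: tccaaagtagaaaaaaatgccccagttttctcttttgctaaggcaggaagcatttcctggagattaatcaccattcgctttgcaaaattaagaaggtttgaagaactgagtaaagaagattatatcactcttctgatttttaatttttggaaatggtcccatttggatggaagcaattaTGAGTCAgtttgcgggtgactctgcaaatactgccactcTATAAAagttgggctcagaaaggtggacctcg

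The AP-1 letters occurred in 6.34%, the TATA box in 12.9% and the GC box in 30.5% of 33469 windows of the same length in that table, and no 2 of the marked matches overlap. Among the 6 genes found, Mmp3 alone held the AP-1 letters, which began 71 bases before the start, and the TATA letters, which began 32 bases before it. Its window held 0 GC boxes and had 38.8% G and C. The other 5 windows held 1 GC box (Timp1 and Timp2) or 3 (Timp3, Mmp11 and Reck), 0 AP-1 and 0 TATA matches, and 61.2% to 72% G and C. Only exact letters were searched, so a window with 0 matches may still hold a site of slightly different letters. The Timp1 window, for example, holds tgagtaa, which differs from the AP-1 letters at 1 base. A match is a description of the letters, and binding was not measured.

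**Figure D1:**
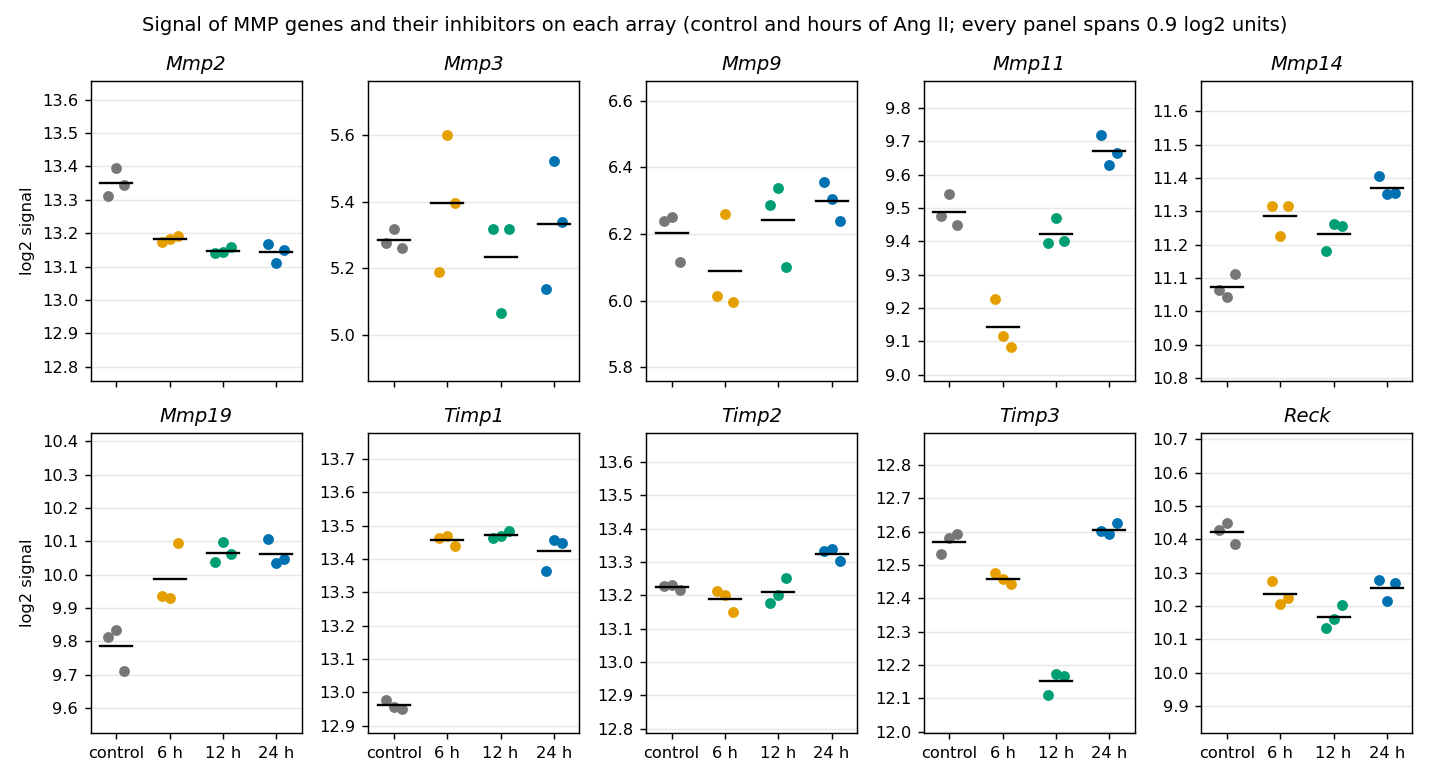
Log2 signal of each of the 10 genes on every array (points, 3 per group) with the group mean (line), for control cells and 6, 12 and 24 h of Ang II; all panels span the same range of log2 units. Timp1 is separated from control at all times, Timp3 dips at 12 h, Mmp11 is lowest at 6 h and highest at 24 h, and the groups of Mmp3 and Mmp9 overlap.

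Mmp14 (NCBI gene 81707) encodes a membrane-anchored MMP that activates the Mmp2 proenzyme at the cell surface. Its log2 signals were 11.06, 11.04 and 11.11 in control cells, 11.32, 11.23 and 11.32 at 6 h, 11.18, 11.26 and 11.26 at 12 h, and 11.41, 11.35 and 11.35 at 24 h. Every Ang II array lay above every control array, and the 24 h arrays were the highest. Against control the log2 difference was 0.21 ± 0.04 at 6 h (SE, n = 3 per group, adjusted p = 0.00213), 0.16 ± 0.04 at 12 h (adjusted p = 0.0169) and 0.30 ± 0.04 at 24 h (1.23-fold, adjusted p = 0.000273). The call at 12 h was lost on leaving out control replicate 1 or 2 or Ang II 12 h replicate 2 or 3, with log2 differences of 0.15 to 0.16 and adjusted p of 0.0546 to 0.0644. Ang II 24 h exceeded 12 h by 0.14 ± 0.04 (adjusted p = 0.0358), a call that was lost without any single one of the 6 arrays compared (adjusted p 0.0517 to 0.108). The 12 and 6 h groups differed by −0.05 ± 0.04 (adjusted p = 0.461). The difference of 24 and 6 h was 0.09 ± 0.04 and did not pass (adjusted p = 0.144). It passed after further quantile normalization (0.12, adjusted p = 0.0151) and after median centring (0.13, adjusted p = 0.015).

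Mmp2 (NCBI gene 81686) encodes gelatinase A, which cuts denatured and basement membrane collagen. Its signals were 13.31, 13.40 and 13.34 in control cells, 13.18, 13.18 and 13.19 at 6 h, 13.14, 13.14 and 13.16 at 12 h, and 13.17, 13.11 and 13.15 at 24 h. All 9 Ang II arrays were below all control arrays and lay close to each other. The fall was 1.12-fold at 6 h (log2 difference −0.17 ± 0.04, adjusted p = 0.00381), 1.15-fold at 12 h (−0.20 ± 0.04, adjusted p = 0.00159) and 1.16-fold at 24 h (−0.21 ± 0.04, adjusted p = 0.00132). The Ang II times did not differ detectably from each other: the 95% interval was −0.12 to 0.05 for 12 h minus 6 h and −0.12 to 0.04 for 24 h minus 6 h.

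Mmp11 (NCBI gene 25481) encodes stromelysin-3, an MMP that furin-type proteases activate inside the cell. Its signals were 9.47, 9.54 and 9.45 in control cells, 9.23, 9.12 and 9.08 at 6 h, 9.39, 9.47 and 9.40 at 12 h, and 9.72, 9.63 and 9.66 at 24 h. The 6 h arrays lay below and the 24 h arrays above all others, whereas 12 h and control arrays overlapped. Mmp11 was 1.27-fold lower at 6 h (log2 difference −0.35 ± 0.05, adjusted p = 0.000152), at −0.07 ± 0.05 at 12 h (adjusted p = 0.403) and 1.13-fold higher at 24 h (0.18 ± 0.05, adjusted p = 0.0162). The rise at 24 h lost its call without control replicate 1 or 3 or Ang II 24 h replicate 1 (log2 difference 0.16 to 0.18, adjusted p 0.0515 to 0.064). Each later time exceeded the one before it: 12 h minus 6 h was 0.28 ± 0.05 (adjusted p = 0.00124) and 24 h minus 12 h was 0.25 ± 0.05 (adjusted p = 0.00319). Between 24 and 6 h the difference came to 1.44-fold (0.53 ± 0.05, adjusted p = 5.28e-06), more than any difference of the 10 genes with control.

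Mmp19 (NCBI gene 304608) encodes a secreted MMP with basement membrane proteins among its substrates. Its signals were 9.81, 9.83 and 9.71 in control cells, 9.94, 9.93 and 10.10 at 6 h, 10.04, 10.10 and 10.06 at 12 h, and 10.11, 10.04 and 10.05 at 24 h. The Ang II arrays were all above the control arrays and overlapped with each other. Mmp19 rose 1.15-fold at 6 h (log2 difference 0.20 ± 0.05, adjusted p = 0.0119), 1.21-fold at 12 h (0.28 ± 0.05, adjusted p = 0.00213) and 1.21-fold at 24 h (0.28 ± 0.05, adjusted p = 0.00222). Without control replicate 3 or Ang II 6 h replicate 3 the 6 h difference was 0.16 or 0.15 and lost its call (adjusted p = 0.0573 and 0.0525).

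Mmp9 (NCBI gene 81687), the gene of gelatinase B, and Mmp3 (NCBI gene 171045), the gene of stromelysin-1, which can activate other MMP proenzymes, had low signals, at the 23.8th and the 11.6th percentile of all gene means. The files hold no detection calls, so whether these probe sets were above background was not tested. Mmp9 had 6.24, 6.25 and 6.12 in control cells, 6.01, 6.26 and 6.00 at 6 h, 6.29, 6.34 and 6.10 at 12 h, and 6.36, 6.31 and 6.24 at 24 h. Each of its Ang II groups overlapped with control, and the 95% intervals of the log2 difference were −0.29 to 0.06 at 6 h, −0.14 to 0.22 at 12 h and −0.08 to 0.27 at 24 h. Its 24 and 6 h groups differed by 0.21 ± 0.08 (adjusted p = 0.0586). Without Ang II 6 h replicate 2, the highest of that group, the difference was 0.29 and passed (adjusted p = 0.00924), as did 12 h minus 6 h (0.24, adjusted p = 0.0398). The difference of 24 and 6 h also passed without Ang II 12 h replicate 3 (adjusted p = 0.0394), with array weights (0.22, adjusted p = 0.0403), after median centring (0.25, adjusted p = 0.042), without the narrowest array of each Ang II group (0.29, adjusted p = 0.0311), and with the replicate number as a block (adjusted p = 0.0166).

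Mmp3 had 5.28, 5.32 and 5.26 in control cells, 5.19, 5.60 and 5.40 at 6 h, 5.32, 5.07 and 5.32 at 12 h, and 5.14, 5.52 and 5.34 at 24 h. Its Ang II arrays scattered on both sides of the control arrays (SD 0.15 to 0.21 in the Ang II groups, against 0.029 in control). The intervals against control were −0.14 to 0.36 at 6 h, −0.30 to 0.20 at 12 h and −0.20 to 0.30 at 24 h. The rise seen in Mmp14 at the same time lay inside each interval, so it could not be told from none for this probe set. The fall seen in Mmp2 lay inside the interval at 12 h (−0.20). It lay just outside at 6 h (−0.17) and 24 h (−0.21).

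Timp1 (NCBI gene 116510) encodes the inhibitor known to bind the Mmp9 proenzyme and to act only weakly on membrane-anchored MMPs. Its signals were 12.98, 12.96 and 12.95 in control cells, 13.46, 13.47 and 13.44 at 6 h, 13.46, 13.47 and 13.49 at 12 h, and 13.36, 13.46 and 13.45 at 24 h. Control and Ang II arrays were separated by far more than the spread within any group. Timp1 rose 1.41-fold at 6 h (log2 difference 0.50 ± 0.04, adjusted p = 9.44e-07), 1.43-fold at 12 h (0.51 ± 0.04, adjusted p = 1.26e-06) and 1.38-fold at 24 h (0.46 ± 0.04, adjusted p = 3.21e-06). No difference between Ang II times passed, with intervals of −0.07 to 0.10 for 12 h minus 6 h and −0.13 to 0.03 for 24 h minus 12 h.

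Timp3 (NCBI gene 25358) encodes the TIMP that stays bound to the extracellular matrix and also inhibits several ADAM and ADAMTS proteases. Its signals were 12.53, 12.58 and 12.59 in control cells, 12.48, 12.46 and 12.44 at 6 h, 12.11, 12.17 and 12.17 at 12 h, and 12.60, 12.59 and 12.63 at 24 h. The 12 h arrays were the lowest by a wide gap, and the 24 h arrays overlapped with control. Timp3 was 1.34-fold lower than in control cells at 12 h (log2 difference −0.42 ± 0.04, adjusted p = 6.01e-06), and its 95% interval at 24 h was −0.05 to 0.12. The difference between 24 and 12 h was 0.46 ± 0.04 (1.37-fold, adjusted p = 5e-06) and that between 12 and 6 h −0.31 ± 0.04 (adjusted p = 8.89e-05). Ang II 24 h also exceeded 6 h (0.15 ± 0.04, adjusted p = 0.00849).

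The fall of Timp3 at 6 h was near the threshold (−0.11 ± 0.04, adjusted p = 0.0398). It lost its call without control replicate 2 or 3, without any 1 of the 6 h arrays, and without Ang II 12 h replicate 2 or 3 or 24 h replicate 3, which change only the estimate of the spread. Over these fits the log2 difference was −0.12 to −0.10 and the adjusted p 0.0506 to 0.128. The call also ended with each array centred on its median (−0.09, adjusted p = 0.0736), with the 2 groups fitted alone (adjusted p = 0.072), without the narrowest array of each Ang II group (adjusted p = 0.0876) and with the replicate number as a block (adjusted p = 0.0614).

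Timp2 (NCBI gene 29543) encodes the inhibitor that, besides blocking MMPs, links the Mmp2 proenzyme to Mmp14 at the cell surface. Its signals were 13.23, 13.23 and 13.22 in control cells, 13.21, 13.20 and 13.15 at 6 h, 13.18, 13.20 and 13.25 at 12 h, and 13.33, 13.34 and 13.30 at 24 h. The 24 h arrays lay above all others. Their log2 difference of 0.10 ± 0.04 with control did not pass (adjusted p = 0.0701), but it did pass with a trended and robust variance, with no moderation, among genes at or above the median level, and after median centring (0.16, adjusted p 0.00224 to 0.0251 over these 4). Ang II 24 h exceeded 6 h by 0.14 ± 0.04 (adjusted p = 0.0132; 0.12 and adjusted p = 0.0583 without Ang II 6 h replicate 3, and adjusted p = 0.0548 with those groups alone). It exceeded 12 h by 0.11 ± 0.04 (adjusted p = 0.0449), a call that was lost on leaving out any 1 of the 12 arrays (adjusted p 0.051 to 0.118) except Ang II 12 h replicate 3 (0.13, adjusted p = 0.045).

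Reck (NCBI gene 313488), named for its effect of reversing the shape of transformed cells, encodes the membrane-anchored inhibitor. Its signals were 10.43, 10.45 and 10.39 in control cells, 10.28, 10.21 and 10.23 at 6 h, 10.13, 10.16 and 10.20 at 12 h, and 10.28, 10.22 and 10.27 at 24 h. All Ang II arrays lay below all control arrays, and the 12 h arrays were lowest. Reck fell 1.14-fold at 6 h (log2 difference −0.19 ± 0.04, adjusted p = 0.00316), 1.19-fold at 12 h (−0.26 ± 0.04, adjusted p = 0.000517) and 1.12-fold at 24 h (−0.17 ± 0.04, adjusted p = 0.00831). The difference between 24 and 12 h was 0.09 ± 0.04 and did not pass (adjusted p = 0.13), but passed after median centring (0.13, adjusted p = 0.0218).

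**Figure D2:**
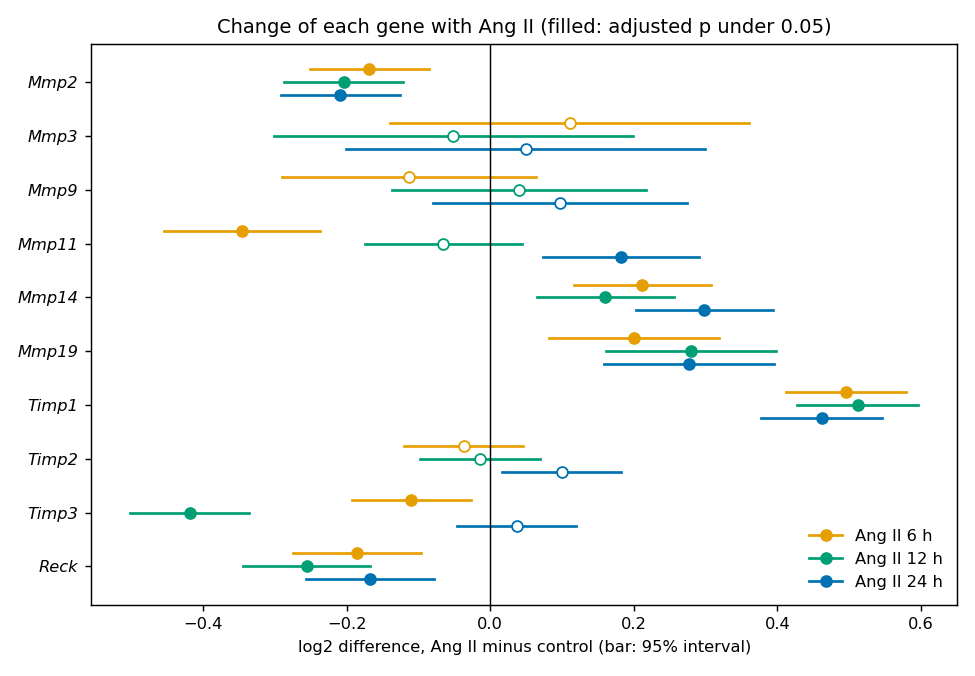
Log2 difference with control of each gene at 6, 12 and 24 h of Ang II (points, with 95% intervals as bars; filled where adjusted p was under 0.05). Timp1 lies between 0.46 and 0.51 at all times, Mmp2 and Reck lie to the left of 0, Mmp14 and Mmp19 to the right, and Timp3 and Mmp11 move with time.

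The 3 comparisons with control share the same 3 control arrays, so their results are not independent of each other. Counted together, 8 of the 10 genes differed among the 4 groups (F test, adjusted p under 0.05), against 51.5% of all genes. At 6 h 7 of 10 passed against control, compared with 35.8% of all genes, 3 higher (18.6% of all genes) and 4 lower (17.2%). At 12 h 6 of 10 passed (26.6% of all genes), 3 higher (13.3%) and 3 lower (13.3%). At 24 h 6 of 10 passed (30.0%), 4 higher (15.3%) and 2 lower (14.7%). The median log2 difference of the 10 genes was −0.07, −0.03 and 0.10 at 6, 12 and 24 h, beside 0.01, 0.01 and 0.05 over all genes. The genes went both ways, so the medians stayed near those of all genes while the share that passed against control was above that of all genes. All genes include dim ones, whereas the members other than Mmp3 and Mmp9 lay at the 70.9th to the 99.4th percentile of gene means. Their SEs were 0.038 to 0.054, against a median of 0.0667, so smaller differences could pass. The members were not set against genes of like brightness.

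Between Ang II times, 2 of 10 passed for 12 h against 6 h (27.0% of all genes), Mmp11 higher (13.1% of all genes) and Timp3 lower (13.9%). For 24 h against 12 h 4 of 10 passed (27.5%), all higher (14.0% higher and 13.5% lower among all genes): Mmp11, Mmp14, Timp2 and Timp3. For 24 h against 6 h 3 of 10 passed (39.2%), all higher (19.4% higher and 19.8% lower among all genes): Mmp11, Timp2 and Timp3. With Mmp14 and Timp2 lost, as above, the count for 24 h against 12 h was 2.

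Some pairs of the genes were set against each other on the same array, which leaves out any shift that an array's genes share. Only changes of such a difference are given, because the signals of 2 probe sets are not on 1 scale. The pairs were chosen after the values had been seen, and 12 comparisons of 3 against 3 arrays were made, for which the exact two-sided permutation test cannot give a p below 0.1. Mmp14 minus Mmp2, the activator less its substrate, was higher than in control cells by 0.38 ± 0.05 at 6 h, 0.36 ± 0.04 at 12 h and 0.51 ± 0.04 at 24 h (SE, n = 3 per group, exact permutation p = 0.1 each, adjusted p = 0.1). All 9 Ang II arrays, at 0.32 to 0.52, lay above the control arrays, at −0.07 to 0.05. Mmp2 minus Timp2 changed by −0.13 ± 0.03, −0.19 ± 0.03 and −0.31 ± 0.03 at 6, 12 and 24 h, and again no Ang II array overlapped with control (exact permutation p = 0.1 each).

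Timp1 minus Timp3 changed by 0.61 ± 0.03 at 6 h, 0.93 ± 0.03 at 12 h and 0.42 ± 0.04 at 24 h (exact permutation p = 0.1 each). The 12 h arrays stood at 0.90 to 0.96, against −0.03 to 0.05 in control cells. Mmp9 minus Timp1 changed by −0.61 ± 0.09, −0.47 ± 0.09 and −0.36 ± 0.07 at 6, 12 and 24 h (exact permutation p = 0.1 each), beside differences of Timp1 alone of 0.50, 0.51 and 0.46 and of Mmp9 alone of −0.11, 0.04 and 0.10.

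**Figure D3:**
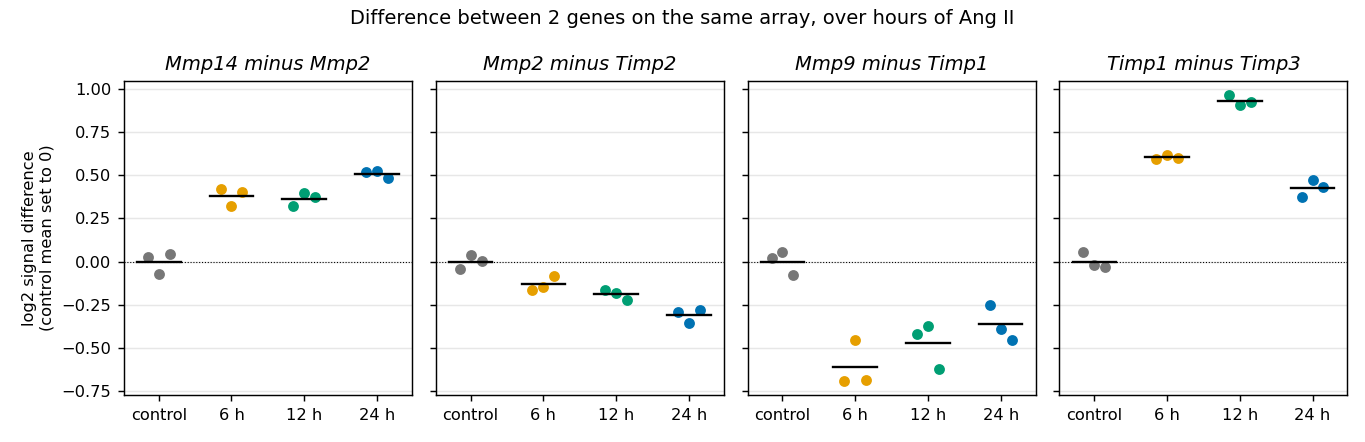
Log2 signal of 1 gene minus that of another on the same array (points, 3 per group; line, group mean), with the control mean set to 0, for control cells and 6, 12 and 24 h of Ang II. Ang II arrays lie above control for Mmp14 minus Mmp2 and Timp1 minus Timp3, which peaks at 12 h, and below it for the other 2 pairs.

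The other MMP genes and Timp4, measured for 16 of 18, gave 1 higher and 3 lower than control at 6 h, 1 and 2 at 12 h, and 2 and 1 at 24 h, with median log2 differences of 0.01, −0.03 and 0.12. Among all genes 35.8%, 26.6% and 30.0% passed in either direction at 6, 12 and 24 h. Mmp16, the gene of another membrane-type MMP, had the largest change of any MMP gene measured. It fell by 0.77 ± 0.07 (log2, adjusted p = 2.89e-06), 0.69 ± 0.07 (adjusted p = 1.46e-05) and 0.71 ± 0.07 (adjusted p = 1.12e-05) at 6, 12 and 24 h. Mmp10, the gene of stromelysin-2, was at 0.11 and 0.02 at 6 and 12 h and rose at 24 h (0.51 ± 0.11, adjusted p = 0.00388) from a dim signal of 4.65 in control cells. Mmp28 fell at 6 h (−0.24 ± 0.06, adjusted p = 0.0103) and rose at 12 h (0.24 ± 0.06, adjusted p = 0.0143) and 24 h (0.30 ± 0.06, adjusted p = 0.00345). Mmp15 fell at 6 h (−0.33 ± 0.07, adjusted p = 0.00277) and 12 h (−0.31 ± 0.07, adjusted p = 0.00522).

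The next list held genes of proteases that activate MMP proenzymes directly or through other proteases, with a receptor and inhibitors of such proteases. Of 15 measured, 9 were higher and 1 lower than control at 6 h, 6 and 1 at 12 h, and 5 and 0 at 24 h (median log2 difference 0.35, 0.07 and 0.14; 8 passed an unadjusted p under 0.05 in limma at 24 h), against 35.8%, 26.6% and 30.0% of all genes in either direction. The 4 genes named here are those with the largest differences of the list. Plat, the gene of tissue plasminogen activator, rose by 3.39, 3.26 and 2.16 at 6, 12 and 24 h (adjusted p 3.73e-11, 5.92e-11 and 2.5e-09). Plau, the gene of urokinase, rose by 1.52 and 1.02 at 6 and 12 h (adjusted p 2.71e-08 and 1.37e-06) and was at −0.20 at 24 h (adjusted p = 0.0714). Serpinb2, an inhibitor of both activators, rose by 2.37 and 2.14 (adjusted p 1.39e-06 and 5.93e-06) and was at 0.17 at 24 h (adjusted p = 0.542). Tfpi2, an inhibitor of plasmin and related proteases, rose by 2.83, 1.64 and 0.50 (adjusted p 7.43e-09, 1.25e-06 and 0.00931).

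Of 14 genes for proteins that bind, induce or clear MMPs, 3 rose and 3 fell at 6 h, 3 and 3 at 12 h, and 2 and 3 at 24 h (median log2 difference 0.01, 0.00 and 0.04). The shares of all genes in either direction were 35.8%, 26.6% and 30.0%. Cd44, the hyaluronan receptor that holds Mmp9 at the cell surface, rose by 1.40, 0.79 and 0.31 (adjusted p 1.54e-09, 2.65e-07 and 0.00046). Lrp1, an endocytic receptor that clears Mmp2 and Mmp9, was at −0.19, −0.27 and −0.19 (adjusted p 0.00351, 0.000391 and 0.00389). Itgb3, an integrin subunit that binds Mmp2, rose at 6 h (0.46, adjusted p = 0.000446), and the tetraspanin gene Cd151 rose at 6 and 12 h (0.31 and 0.39, adjusted p 0.000149 and 4.13e-05).

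Of 17 measured transcription factors known to act on MMP promoters, 10 rose and 7 fell at 6 h. At 12 h 6 rose and 5 fell, and at 24 h 4 rose and 10 fell. Their median log2 difference was 0.19, 0.00 and −0.20 at 6, 12 and 24 h. Among all genes 18.6%, 13.3% and 15.3% rose and 17.2%, 13.3% and 14.7% fell at these times. Fos was at −1.85, −2.80 and −2.71 (adjusted p 3.93e-08, 3.36e-09 and 6.84e-09) and Junb at −0.74, −1.55 and −1.38 (adjusted p 2.64e-06, 1.37e-08 and 3.92e-08). Fosl1 rose by 2.35 at 6 h (adjusted p = 2.07e-10), was at 0.05 at 12 h (adjusted p = 0.646) and fell at 24 h (−0.46, adjusted p = 0.000131). Egr1 was at −1.29, −3.53 and −2.96 (adjusted p 2.5e-08, 2.11e-11 and 2.28e-10). These differences rest on the same control arrays, where the mean log2 signal was 13.55 for Egr1, 10.30 for Fos, 11.02 for Junb and 8.57 for Fosl1. The 95th percentile of gene means was 11.77.

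Matrix proteins that MMPs cut were represented by 12 genes, of which 3 rose and 2 fell at 6 h, 4 and 3 at 12 h, and 3 and 4 at 24 h (median log2 difference 0.02, −0.02 and −0.02). Again, 35.8%, 26.6% and 30.0% of all genes passed in either direction. Acan, the aggrecan gene, rose by 2.38, 2.50 and 2.19 (adjusted p 1.1e-11, 1.89e-11 and 8.49e-11), and the laminin gene Lamc1 by 0.55, 0.46 and 0.13 (adjusted p 8.14e-07, 6.63e-06 and 0.0307). The collagen gene Col3a1 was at −0.24, −0.25 and −0.35 (adjusted p 0.000256, 0.000379 and 2.36e-05), and the proteoglycan gene Dcn at −0.40, −0.39 and −0.74 (adjusted p 0.000499, 0.00105 and 6.86e-06).

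**Figure D4:**
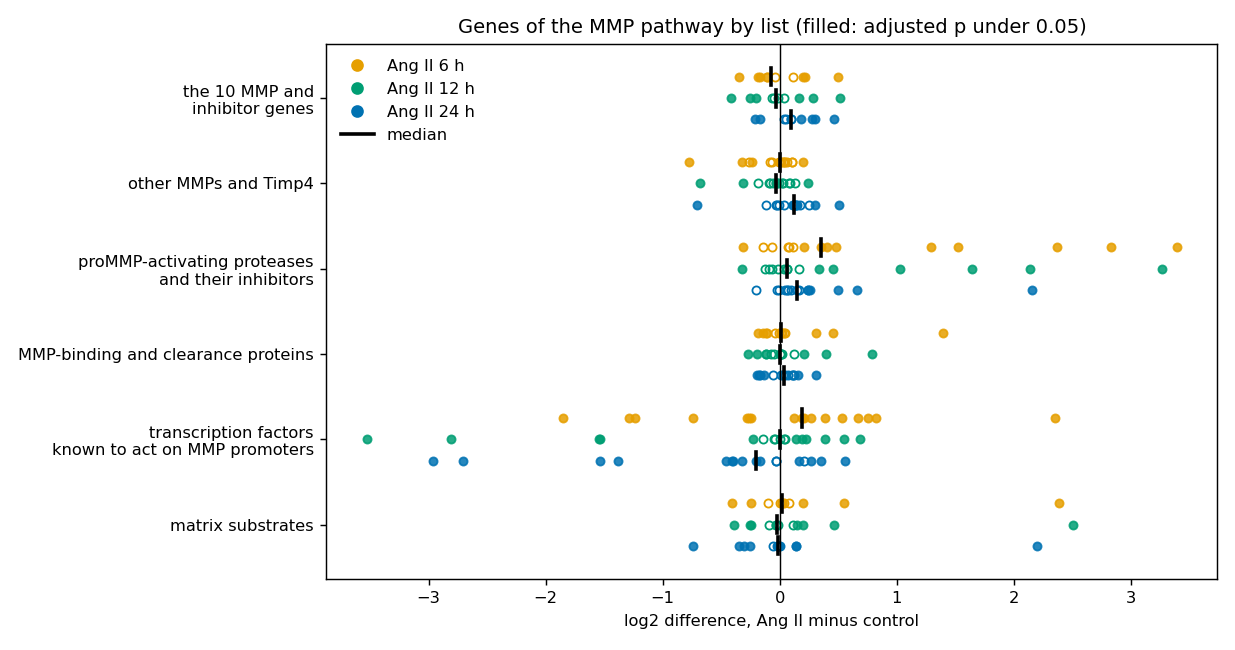
Log2 difference with control for every measured gene of the 10 MMP and inhibitor genes and of 5 related lists, at 6, 12 and 24 h of Ang II (points; filled where adjusted p was under 0.05; black bars, medians). The 10 genes lie between −0.42 and 0.51, while single activating proteases or their inhibitors, transcription factors and Acan reach beyond 2 on either side.

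The genes whose signal was most like that of the 3 most variable members were sought among 493 genes whose group means spanned at least 1 log2 unit, by Pearson correlation over the 12 arrays. These values are a description, as all genes share the arrays and the 4 groups. Timp1 was most like Acan (r = 0.995), Enpp1 (r = 0.990) and Il1rap (r = 0.988), which were higher by 2.19 to 2.50, 1.03 to 1.23 and 1.15 to 1.32 log2 units over the 3 times. Timp3 was most like Pdgfd (r = 0.915), Clybl (r = 0.909) and Celf2 (r = 0.894), all lowest at 12 h, with Pdgfd at −1.17, −1.95 and −0.46. Mmp11 was most like Rgs4 (r = 0.979), Fgf18 (r = 0.977) and Fzd8 (r = 0.970), with Rgs4 at −1.10, −0.14 and 0.76.

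Genes listed as markers of other cells moved beside these results. In bulk RNA, fewer cells of a type and less RNA per cell cannot be told apart. Which cells carried the RNA of these markers was not tested. Of 9 fibroblast markers 5 fell at 6 h, 6 at 12 h and 6 at 24 h, and 0 rose at any time (5, 7 and 6 passed an unadjusted p under 0.05 in limma in either direction). Among all genes 17.2%, 13.3% and 14.7% fell and 18.6%, 13.3% and 15.3% rose at these times. Pdgfra was at −1.39, −1.24 and −1.15 (adjusted p 1.02e-08, 5.29e-08 and 1.23e-07), Scara5 at −0.73, −0.86 and −0.89 (adjusted p 2.03e-05, 9.25e-06 and 7.19e-06) and Col14a1 at −0.32, −0.44 and −1.19 (adjusted p 9.31e-05, 1.3e-05 and 6.84e-09). The mean log2 signal of the fibroblast list was 9.45 to 9.53 on control arrays and 9.07 to 9.14, 9.03 to 9.08 and 8.91 to 8.96 on the arrays of 6, 12 and 24 h. Fibroblasts also express Mmp2, Mmp14, the TIMP genes and Reck, and the part of these markers in the falls of Mmp2 and Reck was not tested.

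Of 9 smooth muscle markers 4 were higher and 3 lower at 6 h, 5 and 1 at 12 h, and 8 and 0 at 24 h. For this list and those that follow, the shares of all genes were 18.6%, 13.3% and 15.3% higher and 17.2%, 13.3% and 14.7% lower. The mean log2 signal of the smooth muscle list was 12.25 to 12.28 on control arrays and 12.32 to 12.36, 12.42 to 12.45 and 12.64 to 12.66 on the arrays of 6, 12 and 24 h. At 24 h Smtn was at 0.66 (adjusted p = 3.58e-07), Lmod1, which was lower at 6 h (−0.19, adjusted p = 0.00262), at 0.59 (adjusted p = 6.75e-07) and Des at 0.56 (adjusted p = 2.87e-05). Of 9 endothelial markers 0 were higher and 2 lower at 6 h, 1 and 2 at 12 h, and 3 and 1 at 24 h (2, 4 and 4 at an unadjusted p under 0.05 in limma), with Tek at −0.66, −0.58 and −0.91 (adjusted p 7.97e-05, 0.000368 and 9.78e-06). Erg was lower at 6 h (−0.34, adjusted p = 0.00227) and 12 h (−0.25, adjusted p = 0.0222) and higher at 24 h (0.68, adjusted p = 1.82e-05). Esam was at 0.25 at 12 h (adjusted p = 0.0116) and 0.40 at 24 h (adjusted p = 0.000554). The mean of the endothelial list was 6.54 to 6.58 on control arrays and 6.41 to 6.53, 6.49 to 6.56 and 6.62 to 6.65 on the arrays of 6, 12 and 24 h. Of 11 leukocyte and macrophage markers, which would accompany cells known as a source of Mmp9, 0 passed at 6 and 12 h (1 each at an unadjusted p under 0.05 in limma), and at 24 h Cd14 alone passed (−1.01, adjusted p = 1.39e-06).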

How the data were processed

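The data are the log2 signals of 12 arrays of total RNA, 1 value per probe set and array, in a table of 29214 rows that the authors deposited. Per the submitters' processing notes RMA and Partek were used to make the log2 values, with no version named. Array medians were 7.22 to 7.32. Arrays have no read depth, and their number limits the precision (median SE of a log2 difference 0.0667).

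The platform annotation named 1 gene for 15310 probe sets; 323 that carry several names were not used, and 13581 are unnamed here. A gene with more than 1 probe set was represented by the brightest on average over the 12 arrays, which left 14506 genes. Of these, 14481 were matched by gene identifier to RefSeq (GRCr8), and 0 symbols changed. Samples were grouped by their titles, and no array was left out.

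All genes were fitted with limma 3.58.1 in R 4.3.3 (4 group means, 12 arrays, 8 residual and 3.37 prior degrees of freedom), with no filter. P-values are two-sided for single comparisons and were adjusted by Benjamini-Hochberg over all genes within a comparison, at 0.05. Fold changes and intervals come from this fit. The step was tested on simulated data. Tables and figures were made with Python 3.11.15, pandas 2.3.3 and matplotlib 3.10.9. Each result was also computed from the compared groups alone, with replicate numbers blocked, with every array omitted in turn, with genes under the median level removed, with probe sets averaged per gene or all kept, after quantile normalization or median centring, with array weights, and with a trended and robust or an unmoderated variance. After the data had been seen, a fit was added that omits 1 array per Ang II group, that whose values had the narrowest interquartile range.

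The 10 genes and the lists of related genes and markers were chosen with earlier results of these data known. Named were all 10 genes, up to 4 genes of each list (3 for markers) with the largest difference with control among those that passed, and the 3 genes most correlated with each of the 3 members of smallest F-test p. The paired differences were added after the values had been seen.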

Additional observations from a re-analysis of the deposited data

Results flagged for a closer look

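Differences between Ang II times passed the test for 4 of the 10 genes in at least 1 of 3 comparisons (limma, adjusted p under 0.05). Since all times share the same control arrays, such a difference is also one between log2 differences with control. Timp2, one of these genes, passed against control at none of the times. Taken singly, 2 of 10 passed for 12 h against 6 h (27.0% of all genes) and 4 of 10 for 24 h against 12 h (27.5%). For 24 h against 6 h 3 of 10 passed (39.2%). The share of all genes that passed in at least 1 of the 3 was not counted and cannot be below 39.2%. Mmp11 exceeded the earlier time in each step, by 0.28 for 12 h minus 6 h, 0.25 for 24 h minus 12 h and 0.53 for 24 h minus 6 h (log2), and it lay below control at 6 h and above it at 24 h. Timp3 differed by −0.31 for 12 h minus 6 h, 0.46 for 24 h minus 12 h and 0.15 for 24 h minus 6 h. Timp2 was higher at 24 h, by 0.11 than at 12 h and by 0.14 than at 6 h. Mmp14 at 24 h exceeded 12 h by 0.14. The calls of Mmp14 and Timp2 for 24 h against 12 h were lost with the replicate number as a block (adjusted p = 0.0519 and 0.0726), with array weights (adjusted p = 0.0525 and 0.0576), and on leaving out any 1 array of the compared groups, except Ang II 12 h replicate 3 for Timp2 (adjusted p = 0.045).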

How the results depend on the processing

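Of 1368 values of the 10 genes over all alternatives, 1280 kept their direction and side of the threshold, 49 lost their call, 14 gained one and 25 turned direction, all 25 in differences that had not passed. Many of these fits could not turn a direction. Changing only the variance, or omitting an array outside the compared groups, leaves the difference as it was. So does averaging or keeping all probe sets, because each of the 10 genes had 1 probe set. The 1280 are therefore not independent checks. Whether the replicate numbers pair the arrays was not decided by these values. Deviations of same-numbered arrays correlated at −0.103 to 0.299 over 18 pairs, 3 of them above 0.1. Of the 12 arrays, 7 correlated best with their own number. The main fit takes the arrays as unpaired. With the replicate number as a block the number of the 10 genes that passed was 6, 6 and 6 against control at 6, 12 and 24 h, and 2, 2 and 4 for 12 h against 6 h, 24 h against 12 h and 24 h against 6 h. The block ended the calls of Timp3 at 6 h (adjusted p = 0.0614) and of Mmp14 and Timp2 at 24 h against 12 h (0.0519 and 0.0726), and Mmp9 at 24 h against 6 h passed with it (0.0166). For 24 h against 12 h the count of 4 was also 2 with array weights, with those 2 groups alone and without the narrowest arrays, and 2 to 3 on leaving out 1 array. For 24 h against 6 h median centring gave 5 in place of 3. Median centring turned Timp2 at 12 h against control to 0.0016, Mmp2 and Mmp19 at 24 h against 12 h to 0.0352 and 0.0374, and Timp1 at 24 h against 6 h to 0.00522. Quantile normalization turned Mmp3 and Timp3 at 24 h against control to −0.0427 and −0.0250, and Mmp9 and Mmp19 at 24 h against 12 h to −0.0278 and 0.0122. Array weights turned Mmp3 at 24 h against 6 h to 0.00366. Without the narrowest arrays, Timp2 at 12 h was at 0.00218, Mmp3 at 24 h at −0.0456 and Mmp2 at 24 h against 12 h at 0.0079. Leaving out 1 array gave, against control, −0.0935 to 0.0329 for Mmp3, −0.00846 to 0.110 for Mmp9 and −0.0349 to 0.00218 for Timp2 at 12 h, and −0.0456 to 0.147 for Mmp3 at 24 h. For 24 h against 12 h it gave −0.0173 to 0.0117 for Mmp2, −0.0125 to 0.106 for Mmp9 and −0.0243 to 0.0138 for Mmp19, and for 24 h against 6 h −0.164 to 0.0408 for Mmp3. The cause was not tested. With the filter at the median level Mmp3 and Mmp9 were not tested, and 3 arrays per group limit what the dim probe sets can show.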
